A study of Mus musculus with 2 samples.

Results

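The 7 globin genes described here are Hba-a1, Hba-a2 and Hba-x, which encode alpha-type chains of haemoglobin, and Hbb-bs, Hbb-bt, Hbb-bh1 and Hbb-y, which encode beta-type chains. They were taken by name as the embryonic and definitive globins of the mouse. Of the 7, 6 had an entry in the count tables, and Hbb-bh1 was in neither table. At least 1 UMI (a molecular tag that marks 1 captured RNA molecule) was counted for 4 of the 7 in the wild-type library, among 21180 genes with a count, and for 6 of the 7 in the mutant library, among 21246.

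The study profiled bone marrow cells of mouse embryos at E18.5 by BD Rhapsody whole-transcriptome single-cell RNA sequencing, with 1 library for each of the 2 genotypes. The labels give the strain C57BL/6 for both libraries. The paper describes the background of its animals as predominantly C57BL/6, kept by interbreeding in the case of conditional mutants. The WT library came from wild-type embryos. The other, labelled Bmx-CreER Wls and called the Wls mutant here, came from embryos with the Bmx-CreERT2 transgene and Wls lox/lox alleles, whose dams had received tamoxifen during pregnancy. Bmx-CreER acts in arterial endothelial cells, and Wls encodes Wntless, a protein that Wnt ligands need for secretion. Whether the wild-type embryos were exposed to tamoxifen, and how many embryos went into each library, is not stated in the labels. Both suspensions had been depleted of cells with the lineage antigens Ter119, Gr-1, B220 and CD3e before capture. Ter119 appears on the surface of maturing erythroid cells, so the cells that carry most globin RNA were selected against in both libraries.

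Haemoglobin joins alpha-type with beta-type chains around haem. In the mouse, primitive erythrocytes of the yolk sac use the embryonic chains from Hba-x (zeta), Hbb-y (epsilon-y) and Hbb-bh1 (beta-h1), whereas definitive erythrocytes from fetal liver and marrow use the adult chains from Hba-a1 and Hba-a2 (alpha) and from Hbb-bs and Hbb-bt (beta). Globin RNA accumulates late in erythroid maturation, until it makes up most of the RNA of a reticulocyte, and it persists after the nucleus is lost.

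Each gene has 3 exons in the GENCODE annotation of GRCm38. The alpha-type genes lie on chromosome 11 on the plus strand in the order Hba-x, Hba-a1 (chr11:32283511-32284465) and Hba-a2 (chr11:32296489-32297298). The beta-type genes lie on chromosome 7 on the minus strand, in the order of transcription Hbb-y, Hbb-bh1, Hbb-bs (chr7:103826534-103828096) and Hbb-bt (chr7:103812524-103813996). Transcripts of Hba-a1 and Hba-a2 were identical at 537 of 538 aligned bases (99.8%), and those of Hbb-bs and Hbb-bt at 575 of 616 (93.3%), with an identical run of 430 bases. How the count tables treated reads that match both genes of a pair is not given in the sources used here, so the split between Hba-a1 and Hba-a2, and to a lesser degree between Hbb-bs and Hbb-bt, is uncertain throughout. The embryonic genes are less alike: Hba-x matched Hba-a1 at 66.0% of aligned bases, Hbb-y matched Hbb-bs at 73.4% and Hbb-bh1 matched it at 73.7%.

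Promoters are shown because the adult alpha-type pair was counted in much the same classes, whereas the adult beta-type pair was not. RefSeq sequence (GRCm38.p6) was available for 6 of the 7 members, Hbb-bh1 being the exception. The 120 bases before the RefSeq start are printed 5′ to 3′ on the strand of the gene, which for Hba-a1 is the plus strand of chr11:32283552-32283671, for Hbb-bs the minus strand of chr7:103827929-103828048 and for Hbb-bt the minus strand of chr7:103813924-103814043. Capitals mark every match, on either strand, to the CACCC box in a long form (CCACACCC) or a short form (CACCC), the GATA string AGATAA, the box CCAAT, and the TATA string in a long form (TATAAA) or a short form (ATAAA). Each long form contains its short form.
Hba-a1: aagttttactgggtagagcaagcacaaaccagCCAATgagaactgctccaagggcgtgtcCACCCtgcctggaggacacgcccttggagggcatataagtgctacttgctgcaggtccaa
Hbb-bs: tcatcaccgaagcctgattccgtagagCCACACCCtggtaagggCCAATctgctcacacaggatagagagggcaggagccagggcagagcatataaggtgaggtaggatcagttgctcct
Hbb-bt: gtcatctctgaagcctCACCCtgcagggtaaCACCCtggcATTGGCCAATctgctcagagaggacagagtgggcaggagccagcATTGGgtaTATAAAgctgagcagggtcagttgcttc

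The promoter of Hba-a2 matched that of Hba-a1 at 117 of 117 aligned bases, while those of Hbb-bs and Hbb-bt matched at 91 of 118 (77.1%). Hbb-bs held the long CACCC box, which 1.84% of 32851 promoters of the same length held. Hbb-bt lacked it and held the short CACCC box 2 times (a string in 31.7% of all promoters). It also held 3 matches to the CCAAT box (21.3% of promoters), of which Hbb-bs held 1, and 1 long TATA string (6.34%), which Hbb-bs lacked. Hba-a1 and Hba-a2 each held 1 short CACCC box and 1 CCAAT box. Of the embryonic genes, Hba-x held a short CACCC box with a long TATA string. Hbb-y held a short CACCC box, a CCAAT box and the short TATA string (20.2% of promoters). AGATAA, found in 4.36% of promoters, was in none of the 6 windows. A missing string, of GATA or of TATA, says only that these exact letters are not there. The windows of Hbb-bs, Hba-a1 and Hba-a2 hold TATAAG, which differs from the long TATA string in its last letter.

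The WT library held 5998 barcodes with 22708005 UMIs, and the Wls mutant library 6825 barcodes with 24704991. Filters on genes and mitochondrial share kept 5736 WT cells, with a median of 3128 UMIs, and 6620 mutant cells, with a median of 3067. The libraries shared 49 barcode sequences, which carried 0 globin UMIs in the WT library and 1 in the mutant library. Levels are UMIs per 1000000 UMIs of the same cells (CPM), not scaled by transcript length because a UMI stands for 1 molecule. Values in brackets are exact 95% intervals (Poisson for levels, Clopper-Pearson for shares, conditional binomial for ratios). The exception is "up to" after a count of 0, which gives the value that 3 counts would have and lies below the upper end of the exact interval. The intervals cover counting error only: with 1 library per genotype there is no spread between replicates, and genotype cannot be told apart from any other difference between the libraries.

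The gene targeted in the mutant was counted first. In the endothelial cluster led by the arterial genes Gja5 and Sox17, Wls stood at 43.6 CPM (21.8 to 78.0) in WT, from 11 UMIs in 78 cells, and at 10.2 CPM (2.11 to 29.9) in the mutant, from 3 UMIs in 71 cells. In all endothelial-like cells it stood at 41.7 CPM (33.2 to 51.8) and 22.8 CPM (16.4 to 30.9), and in all kept cells at 135 and 112 CPM. Wls was thus lower in the mutant in each of these sets, although the intervals overlapped in the arterial cluster. The counts cover the whole gene, and the deleted exon is not known here.

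Most globin RNA in these libraries sat outside the cells that passed the filters. Of 2165 globin UMIs in the WT library, 1638 (75.7%) were in 5 of the 262 removed barcodes, and of 1382 in the mutant library, 1074 (77.7%) were in 3 of 205. Nearly all of these came from 2 barcodes in each library in which more than 50% of all UMIs were globin, named globin-led here and chosen after their values were seen. The WT pair held 996 of 1186 UMIs (84.0%) and 633 of 891 (71.0%), with 132 and 127 genes detected. The mutant pair held 562 of 587 (95.7%) and 511 of 562 (90.9%), with 24 and 48 genes. All 4 barcodes fell to the minimum of 200 genes.

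The globin-led barcodes give the make-up of globin RNA from many molecules in each library. Alpha-type RNA made up 66.0% (63.6 to 68.3) of the globin UMIs of the WT pair and 62.0% (59.0 to 64.9) of those of the mutant pair. Hba-a1 took 52.4% (49.3 to 55.4) and 59.1% (55.3 to 62.9) of the alpha-type UMIs. Embryonic globins took 0 of 1629 UMIs in WT, which allows a share of up to 0.184%, and 0 of 1073 in the mutant, which allows up to 0.280%. The beta-type pair differed more between libraries: Hbb-bt took 48.0% (43.8 to 52.3) of Hbb-bs and Hbb-bt UMIs in the WT pair and 12.0% (9.02 to 15.6) in the mutant pair. The single barcodes lay at 52.3% and 40.8% in WT and at 10.4% and 13.4% in the mutant, so the libraries did not overlap in these 4 barcodes. The cause was not tested.

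**Figure D1:**
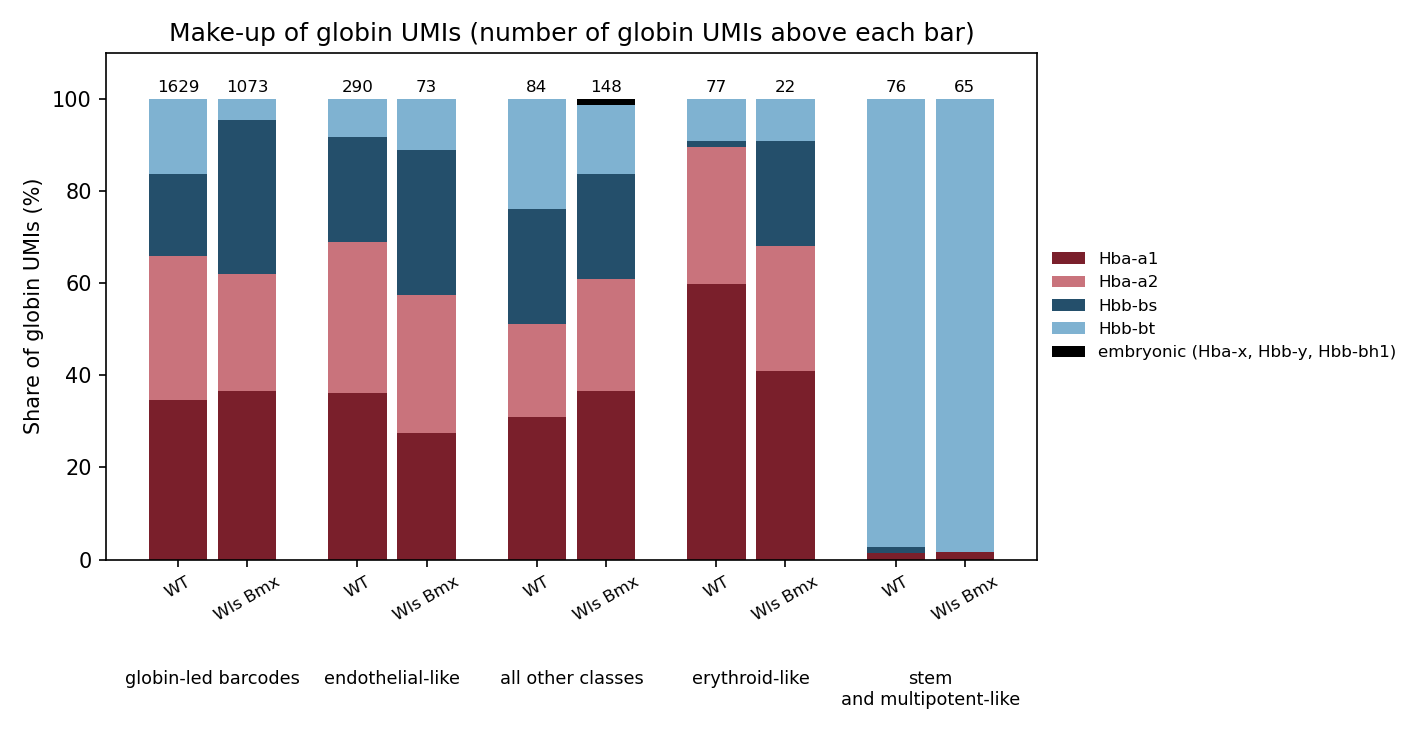
Share of globin UMIs (%) taken by each globin gene in 5 sets of barcodes, by library, with the number of globin UMIs above each bar. Alpha-type RNA takes 66.0% in WT and 62.0% in the mutant in globin-led barcodes, and 69.0% and 57.5% in endothelial-like cells. In erythroid-like cells it takes 89.6% in WT and 68.2% in the mutant, where the interval (45.1 to 86.1) includes both other mutant shares. Stem and multipotent-like cells are almost wholly Hbb-bt (97.4% and 98.5%).

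Kept cells were grouped by clustering in which globin genes were not used, and each cluster was named from fixed marker lists that hold no globin gene. The erythroid-like class was 1 cluster of 149 WT and 63 mutant cells, with median depths of 9829 and 10312 UMIs. Of the 16 listed erythroid markers, 15 were in the tables and 13 had UMIs in this class in each library. The list summed to 4165 CPM in WT and 3546 CPM in the mutant, and its most abundant gene was Car2, a carbonic anhydrase, at 2135 and 1750 CPM. Klf1, the erythroid transcription factor that activates beta-globin, stood at 280 and 264 CPM. Alas2, the erythroid enzyme that starts haem synthesis, and Slc4a1, the band 3 anion exchanger of the red cell membrane, had 0 UMIs in both libraries. The class thus carried early erythroid markers and lacked both of these late ones, after a selection against Ter119.

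Globin RNA was scarce even in erythroid-like cells. The 4 adult genes together gave 77 UMIs in WT, or 54.4 CPM (42.9 to 67.9), and 22 UMIs in the mutant, or 36.9 CPM (23.2 to 55.9). That was 2.52 times (1.95 to 3.21) the level in all other kept cells in WT and 3.07 times (1.90 to 4.74) in the mutant. In WT both levels rested on few cells, left out after seeing the data. Without cells of 11 or more alpha-type UMIs, the erythroid-like alpha-type level fell from 48.7 to 23.1 CPM. Without cells of 20 or more globin UMIs, other cells fell from 21.6 to 10.9 CPM in WT and from 12.0 to 9.16 CPM in the mutant. The ratios were not recomputed. The study's own list of cell types, of which the part available here covers 1999 of the 5736 kept WT cells, names 65 erythrocytes, 54 of them in the erythroid-like class. Among the listed cells the order was the reverse, with 26.8 CPM (15.3 to 43.5) in erythrocytes against 39.8 CPM (35.3 to 44.7) in all others. At least 1 globin UMI was found in 20.8% of WT and 22.2% of mutant erythroid-like cells. In chondrocyte-like cells, the class taken for comparison, the shares were 0% of 1028 cells (up to 0.292%) and 0.162%, at median depths of 3714 and 3494.5 UMIs. With each cell thinned to 1000 UMIs, erythroid-like shares were 4.79% and 6.67%, above the 0% and 0.0824% of thinned chondrocyte-like cells. Their intervals (1.95 to 9.63 and 1.85 to 16.2) overlapped those of other thinned classes, such as endothelial-like cells at 2.65% (1.49 to 4.33) in WT and mural-like cells at 3.33% (1.09 to 7.61) in the mutant.

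Alpha-type RNA made up most of the globin in erythroid-like cells. Hba-a1 was counted at 32.5 CPM (23.8 to 43.3) in WT, from 46 UMIs, and at 15.1 CPM (6.91 to 28.7) in the mutant, from 9. Hba-a2 was counted at 16.2 CPM (10.3 to 24.4), from 23 UMIs, and at 10.1 CPM (3.70 to 21.9), from 6. Their sum was 48.7 CPM (37.9 to 61.6) in WT and 25.2 CPM (14.1 to 41.5) in the mutant. Hba-a1 took 66.7% (54.3 to 77.6) and 60% (32.3 to 83.7) of the alpha-type UMIs, 2 intervals that overlap widely. Alpha-type UMIs were uneven among cells: 24 of 149 WT cells had any, and 3 of these, with 11, 12 and 14 UMIs, held more than all the rest together. In the mutant, 10 of 63 cells had any, and no cell had more than 4.

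Adult beta-type RNA was rarer in the same cells. Hbb-bs and Hbb-bt are the adult beta genes of the Hbb haplotype of C57BL/6. Hbb-bt was counted at 4.94 CPM (1.99 to 10.2) in WT, from 7 UMIs, and at 3.36 CPM (0.407 to 12.1) in the mutant, from 2. Hbb-bs stood at 0.706 CPM (0.0179 to 3.93) in WT, from 1 UMI, and at 8.40 CPM (2.73 to 19.6) in the mutant, from 5. Hbb-bt therefore took 7 of 8 adult beta-type UMIs in WT and 2 of 7 in the mutant, shares of 87.5% (47.3 to 99.7) and 28.6% (3.67 to 71.0) whose intervals overlap. Alpha-type RNA made up 89.6% (80.6 to 95.4) of globin UMIs in WT and 68.2% (45.1 to 86.1) in the mutant. The WT share lay above the 66.0% of the globin-led barcodes of that library, with no overlap of the intervals, while the mutant interval included the 62.0% of its own. With each WT cell given equal weight, the alpha-type share was 77.2%, and in the listed erythrocytes it was 75.0% (47.6 to 92.7), both outside the main interval.

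Embryonic globins were not detected in erythroid-like cells. Hba-x and Hbb-y gave 0 of 77 globin UMIs in WT, which allows a share of up to 3.90%, and 0 of 22 in the mutant, which allows up to 13.6%. In whole libraries, Hba-x and Hbb-y had 0 UMIs in WT and 1 each in the mutant. The Hba-x UMI was in a stromal (BMSC)-like cell and the Hbb-y UMI in a granulocyte-monocyte progenitor-like cell, so neither came from an erythroid-like cell. Hbb-bh1 could not be assessed, since the tables hold no entry for it.

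Within the erythroid-like class, globin was concentrated in the most mature cells of the WT library. Cells of both libraries were ranked by the share of a late erythroid list without globins (Ermap, Rhag and others) and divided into 3 equal bins, which are ranges and not cell types. In WT, globin stood at 15.9 CPM (5.84 to 34.6) in the earliest bin, 7.82 CPM (2.13 to 20.03) in the middle bin and 127 CPM (98.3 to 161) in the latest bin, and 64 of the 69 alpha-type UMIs were in the latest bin. In the mutant, the corresponding values were 0 CPM (up to 13.02), 44.2 CPM (20.2 to 83.8) and 80.6 CPM (42.9 to 138), from 26, 19 and 18 cells. When the ranking was made from cells thinned to 1000 UMIs, the WT values were 18.4, 17.8 and 124 CPM. The mutant values became 43.1, 45.5 and 23.8 CPM, so the gradient in the mutant depended on the ranking. The 3 WT cells with 11 or more alpha-type UMIs were in the latest bin under either ranking. Without them, a choice made after seeing the data, that bin stood at 58.6 CPM (39.3 to 84.2), still clear of the earlier bins, and at 47.6 CPM (29.4 to 72.7) in the thinned ranking, where its interval met theirs.

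**Figure D2:**
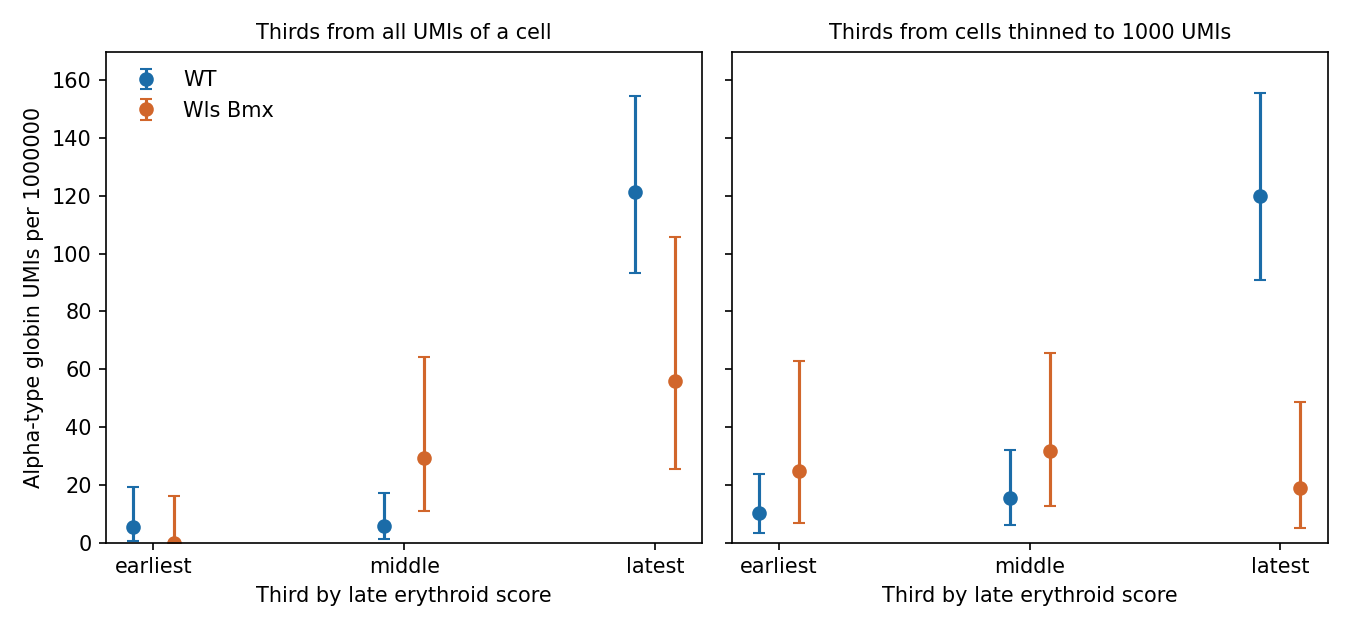
Alpha-type globin level (UMIs per 1000000) in 3 bins of erythroid-like cells ranked by late erythroid genes, from all UMIs of a cell (left) or from cells thinned to 1000 UMIs (right); points are single libraries and bars exact 95% Poisson intervals. In WT the latest bin stands apart at 121 and 120 CPM in the left and right panels, and in the mutant the intervals of the bins overlap, apart from the earliest and latest bins on the left.

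The highest level of a beta-type gene in any class with at least 50 cells was that of Hbb-bt in stem and multipotent-like cells, a class of 151 WT and 88 mutant cells marked by Hlf, Mecom and Flt3. The class name comes from these markers. The study's own labels call 72 of its WT cells multipotent stem and progenitor cells (HSPCs). They call 48 megakaryocyte progenitors and 31 myeloid progenitors. In this class Hbb-bt was counted at 88.5 CPM (69.5 to 111) in WT, from 74 UMIs. The mutant level was 128 CPM (98.4 to 163), from 64 UMIs. Hbb-bt was the only globin with more than 1 UMI in cells of this class. Hba-a1 had 1 UMI in each library, Hbb-bs 1 in WT and 0 in the mutant, and Hba-a2, Hba-x and Hbb-y had 0 in both. Hbb-bt thus took 97.4% (90.8 to 99.7) of globin UMIs in WT and 98.5% (91.7 to 99.96) in the mutant.

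This make-up differed from that of erythroid-like cells, of the globin-led barcodes and of all remaining classes pooled. Hbb-bt was 17.9-fold higher (8.27 to 46.1) in stem and multipotent-like than in erythroid-like cells in WT and 38.1-fold higher (10.1 to 321) in the mutant. Against all remaining classes outside the erythroid-like class, it was 40.3-fold (27.4 to 59.9) and 99.2-fold (63.4 to 159) higher. Alpha-type RNA went the other way, with a level in erythroid-like cells that was 40.7-fold (7.07 to 1632) that of stem and multipotent-like cells in WT and 12.6-fold (1.94 to 531) in the mutant. Alpha-type RNA was 66.0% of globin in the WT globin-led barcodes and 1.32% (0.0333 to 7.11) in WT stem and multipotent-like cells. In the mutant the corresponding shares were 62.0% and 1.54% (0.0389 to 8.28). Hbb-bt also led in some classes with few globin UMIs, with 7 of 8 in the WT H2-Aa/Pf4-led cluster (6 of them in 1 cell), 5 of 7 in WT granulocyte-monocyte progenitor-like cells and 4 of 5 in mutant osteoclast-like cells (all 4 in 1 cell).

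Hbb-bt UMIs were spread over many stem and multipotent-like cells. They were found in 36 of 151 WT cells (23.8%, 17.3 to 31.4) and in 22 of 88 mutant cells (25.0%, 16.4 to 35.4), with at most 6 and 14 in a cell. The share among all other kept cells outside the erythroid-like class was 0.460% in WT and 0.294% in the mutant, at lower median depths (3049.5 and 3030 UMIs against 5420 and 5431). With each cell thinned to 1000 UMIs, the shares were 9.40% and 8.05% against 0.0564% and 0.127%. Only 1 stem and multipotent-like cell of each library held an alpha-type UMI. Neither held an Hbb-bt UMI, which says little about whether alpha-type and Hbb-bt RNA occur together. The 15 listed erythroid markers, of which 7 in WT and 9 in the mutant had UMIs, came to 694 and 531 CPM in these cells, with Car2 at 544 and 453. Without Car2 they came to 149 and 77.9 CPM, mostly from Ctse (95.7 and 9.99 CPM), Hemgn (23.9 and 13.98), Gata1 (21.5 and 24.0) and Epor (2.39 and 13.98). Klf1 had 1 UMI in each library, and Ermap, Alas2 and Slc4a1 had 0 in both.

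**Figure D3:**
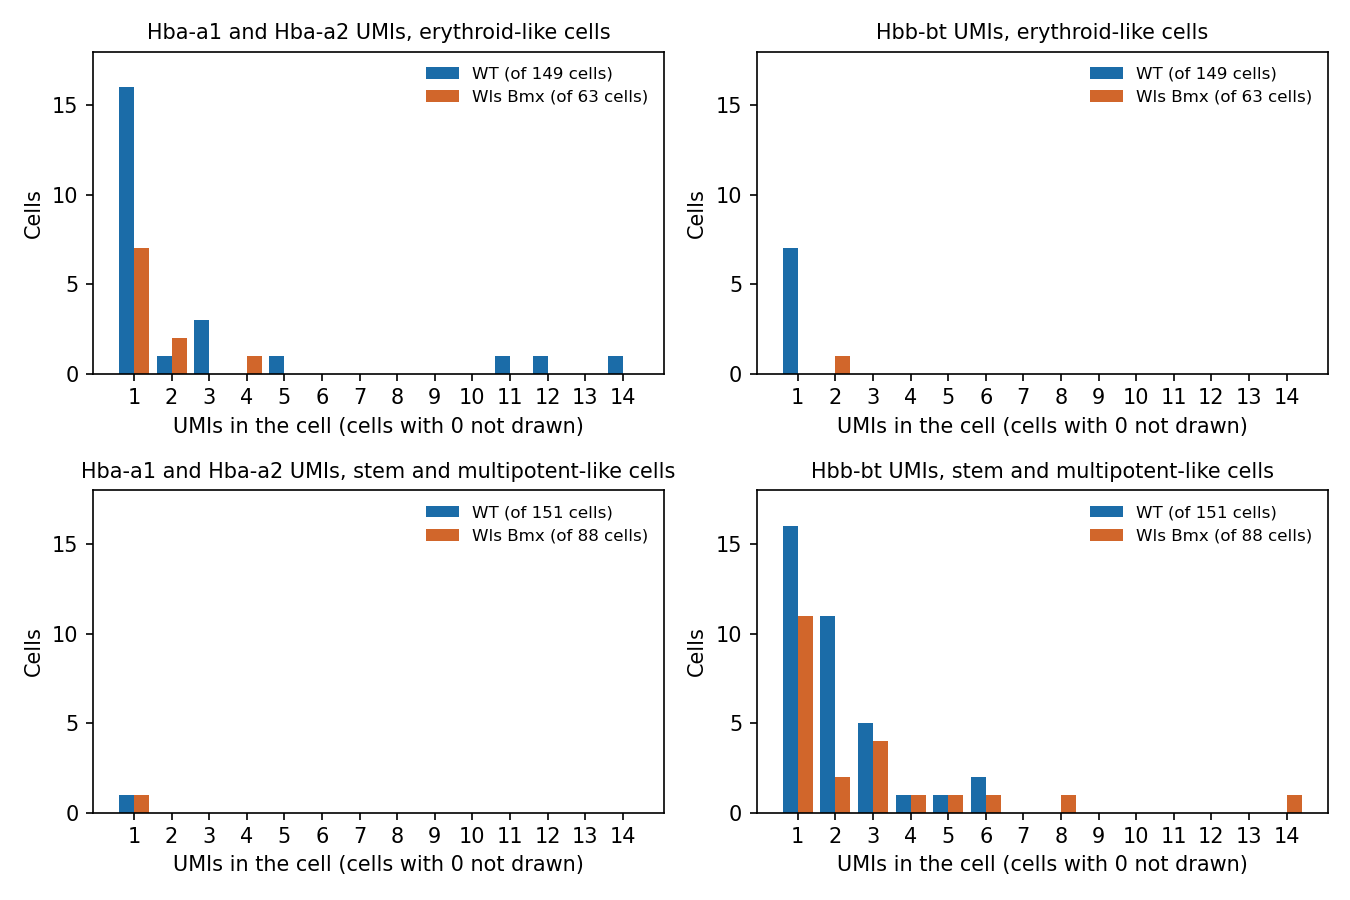
Number of cells by their count of alpha-type UMIs (left) and Hbb-bt UMIs (right) in erythroid-like cells (upper) and stem and multipotent-like cells (lower), with cells at 0 not drawn. Alpha-type UMIs reach 14 in an erythroid-like cell and 1 in a stem and multipotent-like cell, whereas Hbb-bt UMIs reach 2 and 14.

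Hbb-bt varied within the class with the stem cell transcription factor gene Hlf. Cells with at least 1 Hlf UMI held Hbb-bt at 104 CPM (80.4 to 132) in WT and 160 CPM (121 to 208) in the mutant. Cells without one held it at 39.8 CPM (17.2 to 78.4) and 53.0 CPM (22.9 to 105). The level was higher in Hlf-positive cells in both libraries. The intervals did not overlap with all cells, but 14 of the 56 Hbb-bt UMIs of Hlf-positive mutant cells were in 1 cell. The cell with most Hbb-bt UMIs was left out in each library, a choice made after seeing the data. Hlf-positive cells then held 95.1 CPM (72.5 to 122) in WT and 124 CPM (89.6 to 168) in the mutant. In both libraries these intervals overlap those of cells without an Hlf UMI. Median depth was 5292 against 5670.5 UMIs in WT and 5717 against 4643 in the mutant. In the study's own lists of WT cells, which were available only in part, the megakaryocyte progenitors held Hbb-bt at 78.6 CPM (55.6 to 108), compared with 28.7 CPM (19.7 to 40.2) for the HSPCs called multipotent. It stood at 12.2 CPM (5.86 to 22.5) in myeloid progenitors, at 5.02 CPM (1.04 to 14.7) in erythrocytes and at 0 in neutrophil progenitors (up to 2.79). Of the 89 cells listed as megakaryocyte progenitors, 48 were in the stem and multipotent-like class and held 37 of the 38 Hbb-bt UMIs. These 48 cells held Hbb-bt at 152 CPM (107 to 210). Within the same class it stood at 63.3 CPM (42.7 to 90.3) in cells listed as multipotent HSPCs and at 58.8 CPM (23.6 to 121) in those listed as myeloid progenitors. Together these listed groups made up all 151 WT cells of the stem and multipotent-like class. Of its 74 WT Hbb-bt UMIs, megakaryocyte progenitors held 37, multipotent HSPCs 30 and myeloid progenitors 7. The WT signal of the class was thus not confined to cells that the study calls multipotent. In the megakaryocyte-like class, Hbb-bt had 0 UMIs in WT (up to 7.38 CPM) and 2 in the mutant.

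**Figure D4:**
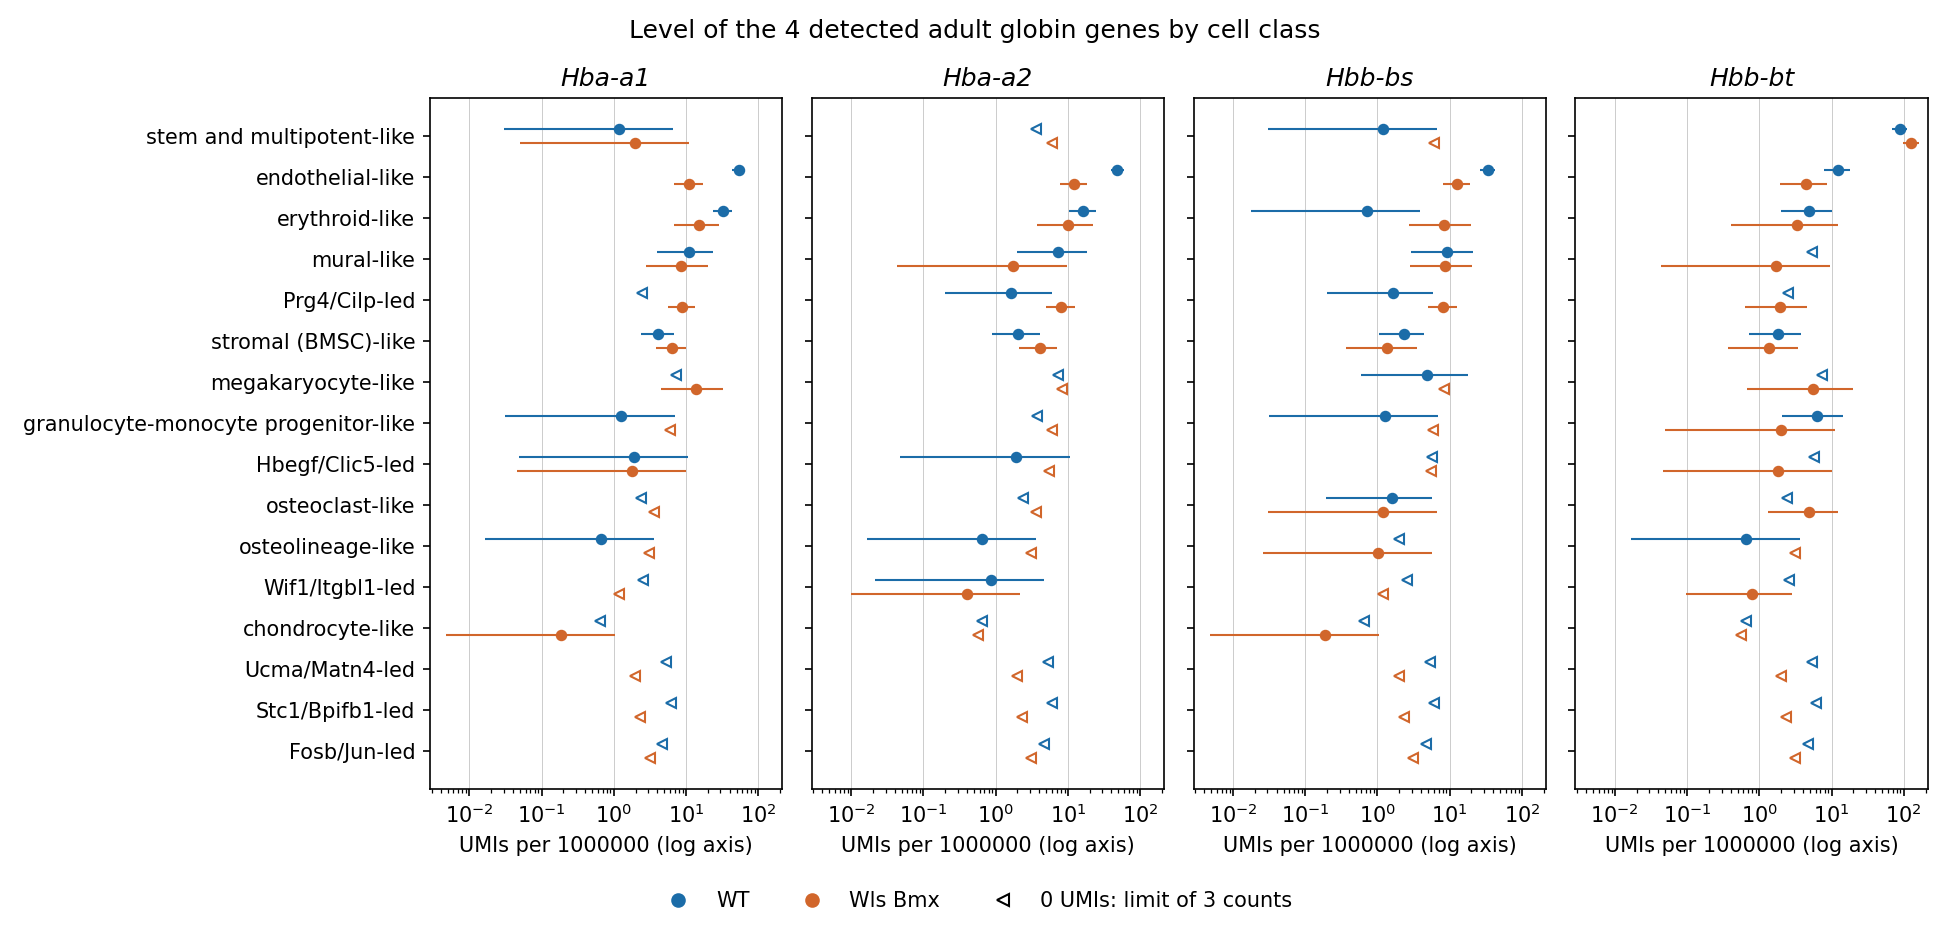
Level (UMIs per 1000000, log axis) of the 4 adult globin genes in each class with at least 50 cells in both libraries, in WT and the mutant (labelled Wls Bmx), with exact 95% Poisson intervals as bars; open triangles mark classes with 0 UMIs at the limit that 3 counts would give. Hbb-bt peaks in stem and multipotent-like cells (88.5 and 128 CPM), the other genes in endothelial-like or erythroid-like cells, and most cartilage classes are at or near 0.

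Summed over genes, the classes fell in a similar but not identical order in the libraries. In WT, endothelial-like cells came first at 148 CPM (131 to 166), then stem and multipotent-like cells at 90.9 CPM (71.6 to 114) and erythroid-like cells at 54.4 CPM, and the intervals of these 3 did not overlap from one to the next. The first place rested on 4 cells, without which (a choice made after seeing the data) endothelial-like cells stood at 34.0 CPM (26.3 to 43.3). That was below both of the other classes with all their cells, although the interval met that of erythroid-like cells (42.9 to 67.9). The erythroid-like level was not recomputed without its own 3 richest cells. Without them the earliest, middle and latest bins held 6, 4 and 29 globin UMIs, among 1383385 UMIs in all. That would put erythroid-like cells below 34.0 CPM too, so the order of these 2 classes depended on which cells were left out. The small H2-Aa/Pf4-led cluster followed at 35.9 CPM (15.5 to 70.7) from 29 cells, then mural-like cells at 27.2 CPM (15.2 to 44.9) and, without overlap with them, stromal (BMSC)-like cells at 10.3 CPM (7.39 to 14.1). In the mutant, stem and multipotent-like cells came first at 130 CPM (100 to 165), clear of endothelial-like cells at 40.6 CPM (31.8 to 51.1). Below these, no class was clear of the next in the order: erythroid-like cells at 36.9 CPM, a Prg4/Cilp-led cluster at 27.2 CPM (21.2 to 34.3), mural-like cells at 20.7 CPM (10.7 to 36.1), megakaryocyte-like cells at 19.4 CPM (7.79 to 39.9) and so on. The place of the Prg4/Cilp-led cluster rested on 2 cells, which held 68 of its 70 globin UMIs. Chondrocyte-like cells had 0 UMIs among 4610025 in WT (up to 0.651 CPM) and 2 among 5344168 in the mutant (0.374 CPM, 0.0453 to 1.35).

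Globin in the pooled non-erythroid, non-stem classes was in 88 of 5436 WT and 77 of 6469 mutant cells. In WT endothelial-like cells, 35 of 584 cells held 290 globin UMIs, of which 224 were in 4 cells with 98, 69, 29 and 28. In the mutant, 26 of 459 endothelial-like cells held 73, with at most 16 in a cell, and 2 cells of the Prg4/Cilp-led cluster held 46 and 22. These 6 globin-rich cells (20 UMIs or more, a limit chosen after seeing the data) held 49.8% of the globin UMIs outside the erythroid-like class in WT and 23.8% in the mutant. Globin was between 0.251% and 2.37% of their UMIs, and their 6 leading genes outside globin mixed general and mitochondrial genes (Tmsb4x, mt-Cytb) with genes of their class, Sparc in all 4 endothelial-like cells, Fabp4 in 2 and Col4a1 in 1, and Prg4 in both cells of the other cluster. The erythroid list gave 0 or 1 UMI in 5 of the 6 and 6 UMIs in the remaining mutant cell, which also held 15 UMIs of the late erythroid list.

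Whether globin in these classes came from free RNA, doublets or attached cells was not tested. Endothelial-like cells had 69.0% (63.3 to 74.2) alpha-type UMIs in WT and 57.5% (45.4 to 69.0) in the mutant, and both intervals included the share of the globin-led barcodes of the same library. Hbb-bt took 26.7% (17.9 to 37.0) of adult beta-type UMIs in WT endothelial-like cells, against 48.0% in the globin-led pair, but without the 4 globin-rich cells it took 7 of 20 UMIs (35%, 15.4 to 59.2), an interval that includes 48.0%. In mutant endothelial-like cells it took 25.8% (11.9 to 44.6), an interval whose lower end meets the 12.0% of the globin-led pair. In all further classes together, alpha-type RNA took 51.2% (40.0 to 62.3) and 61.5% (53.1 to 69.4) of globin UMIs, the WT share lying below that of the WT globin-led barcodes without overlap. Hbb-bt took 48.8% (32.9 to 64.9) and 39.3% (26.5 to 53.2) of their adult beta-type UMIs, the mutant share lying above the 12.0% (9.02 to 15.6) of its globin-led pair. In the 7 clusters whose listed WT cells were at least 90% chondrocytes in the study, globin stood at 0.576 CPM (0.187 to 1.34) in WT and at 5.27 CPM (4.15 to 6.61) in the mutant, of which 0.492 CPM (0.198 to 1.01) remained once the 2 globin-rich cells were left out.

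The comparison of the mutant with WT asked whether loss of Wls in arterial endothelium went with a change in globin RNA. In erythroid-like cells, the summed globin level in the mutant was 0.680 times that in WT (0.403 to 1.10), an interval that includes no change. The alpha-type ratio was 0.517 (0.275 to 0.913), with Hba-a1 at 0.465 (0.200 to 0.962) and Hba-a2 at 0.621 (0.207 to 1.57). The Hbb-bs ratio was 11.9 (1.33 to 563) from 5 against 1 UMI, and the Hbb-bt ratio 0.680 (0.0689 to 3.57). The alpha-type ratio rested on the 3 WT cells with 11 or more such UMIs. Without them, a choice made after seeing the data that takes cells from WT alone, WT stood at 23.1 CPM (15.8 to 32.7) from 32 UMIs and the ratio was 1.09 (0.548 to 2.07). The lower alpha-type level in the mutant thus depended on 3 cells, and the Hbb-bs ratio on 6 UMIs. The summed globin ratio was not recomputed without those 3 cells. Leaving them out took globin in the latest WT maturation bin from 67 to 29 UMIs, beside 6 and 4 in the earlier bins. Over the 1383385 UMIs of the remaining WT cells, that lies below the 36.9 CPM of the mutant, so the ratio would lie above 1. The lower summed level in the mutant thus also depended on those 3 cells. As background, 74 of 2104 genes with at least 200 UMIs in these cells (3.52%) differed by more than 1.5-fold between the libraries, 42 of them higher and 32 lower in the mutant, with a median ratio of 0.984. None of the members was among them, since 0 of the 7 reached 200 UMIs.

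In stem and multipotent-like cells the Hbb-bt ratio was 1.44 (1.02 to 2.05). Without the mutant cell with 14 Hbb-bt UMIs, a choice made after seeing the data, it was 1.16 (0.791 to 1.68), and without the cell with most Hbb-bt UMIs in each library 1.25 (0.852 to 1.83), both including no change. The difference also depended on where the class was drawn: with other clustering settings and filters, tried after seeing the data, Hbb-bt ranged from 69.6 to 138 CPM in WT and from 83.2 to 228 CPM in the mutant, and the ratio from 0.888 to 1.66. The direction turned when each library was clustered on its own, at 105 CPM in WT and 93.0 CPM in the mutant (ratio 0.888, 0.617 to 1.27), and in 3 of the other 5 settings the interval included no change. In all cells outside the erythroid-like class, globin stood at 21.6 CPM (19.6 to 23.7) in WT, from 450 UMIs, and at 12.0 CPM (10.7 to 13.5) in the mutant, from 286, a ratio of 0.557 (0.479 to 0.647). It was lower in the mutant for Hba-a1, Hba-a2, Hbb-bs and Hbb-bt, with ratios of 0.498, 0.454, 0.568 and 0.698, all with intervals below 1. The libraries mixed the classes of this set differently, with 151 and 88 stem and multipotent-like cells and 2620 and 4343 cells in the 7 cartilage clusters, and 74 of its 118 WT Hbb-bt UMIs were in stem and multipotent-like cells, where the ratio lay above 1. Without the 6 globin-rich cells, however, the levels were 10.9 and 9.16 CPM and the ratio 0.844 (0.698 to 1.02), which includes no change. The endothelial-like ratio of 0.275 (0.210 to 0.357) rested on the same 4 WT cells, without which 66 UMIs remained in 580 WT cells against 73 in 459 mutant cells, and the ratio turned to 1.19 (0.844 to 1.69).

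Of 22 listed regulators and partners of globin genes, 21 were in the tables, the chaperone gene Ahsp being the exception. They were compared between erythroid-like and stem and multipotent-like cells, since these classes carried different globins. With an interval of the ratio that excluded 1 in both libraries, a rule set after seeing the data, 7 of the 21 were higher and 4 lower in erythroid-like cells, beside 8.53% and 13.4% of all 11181 genes with at least 200 UMIs in kept cells. Klf1 differed most plainly, at 280 and 264 CPM in erythroid-like cells against 1.196 and 1.997 CPM in stem and multipotent-like cells. Gata1, the master erythroid factor, stood at 330 and 285 against 21.5 and 24.0 CPM, and Gfi1b at 139 and 134 against 27.5 and 29.96 CPM. Bcl11a, the repressor of embryonic and fetal globins, was high in both classes, at 297 and 338 against 226 and 243.7 CPM, whereas its partner Sox6 was near 0 in both, with 7 and 0 UMIs against 3 and 1. Hmga2, a target of the Lin28b pathway in fetal blood cells, was lower in erythroid-like cells, at 180 and 166 against 1336 and 1370 CPM, and Lin28b itself stood at 50.8 and 42.0 against 46.6 and 28.0 CPM. Between libraries, 0 of the 13 regulators with at least 200 UMIs in erythroid-like cells differed by more than 1.5-fold, beside the 3.52% of all genes. Among those with fewer UMIs, Klf3 was higher in the mutant, with a ratio of 1.61 (1.05 to 2.45). Igf2bp1 at 0.433 (0.108 to 1.27) and Sox6 at 0 (0 to 1.65) were lower, with intervals that include no change.

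Genes with the pattern most like summed globin were sought among 11179 genes over 32 points, each a class of at least 50 cells in 1 library. The 5 highest Pearson correlations of log level were those of Egfl7 (0.826), Irgm1 (0.805), Calcrl (0.803), Mfng (0.803) and Ipo11 (0.799). Egfl7, an endothelial secreted factor, stood at 879 and 915 CPM in endothelial-like cells and at 206 and 210 CPM in stem and multipotent-like cells. The points share libraries and depth, and classes of the same lineage are alike, so these values describe the pattern and carry no test. Without the 6 globin-rich cells, a choice made after seeing the data, Egfl7 fell to place 6 (0.809) and Mfng to place 11 (0.794), while Irgm1 (0.841), Ipo11 (0.823) and Calcrl (0.821) stayed among the first 5.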

How the data were processed

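The authors deposited 1 table per library, in which each value is a count (UMIs of a gene in a barcode) with no normalisation. Per the submitters' notes, reads were processed with bcl2fastq 2.19.1.403, UMI-tools 1.0.1, STAR 2.7.1a on mm10 and featureCounts 1.6.4. Kept cells had over 200 but under 5000 genes and a mitochondrial share of UMIs below 30%. These filters, the scaling to 10000 UMIs, the removal of cell cycle genes from the variable genes and the 11 principal components were those of the study. The use of scanpy 1.11.5, no integration of the libraries, the removal of globin genes, 20 neighbours and Leiden resolution 0.5 (igraph 0.11.9) were choices made here. Clusters named from a haematopoietic list were then clustered again on their own. A cluster was named, with the suffix "-like", from the marker list with the highest mean log2 fold (at least 0.75, and at least 3 markers up 2-fold with 10 UMIs), and otherwise by its leading genes. Doublets were kept. Scrublet called 38 WT and 0 mutant cells, and whether its threshold separated doublets was not checked. Leaving out the 5% highest scores was an alternative. Levels, shares and ratios had exact intervals (scipy 1.17.1), checked on simulated data. No test was run, since each genotype had 1 library. Alternatives changed the resolution, components, globin genes in clustering, libraries clustered singly, filters, weighting and thinning. Sequences were aligned with Biopython 1.88 and figures drawn with matplotlib 3.10.9 (numpy 2.4.6, pandas 2.3.3). Promoters and motif shares came from RefSeq, GRCm38.p6.

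The named genes were the 7 members, other globin genes, 22 regulators and partners, and the 5 genes with the highest Pearson correlation with summed globin (log2 of CPM plus 10, genes with at least 200 UMIs). The members and lists were chosen with earlier results of these data known.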

Additional observations from a re-analysis of the deposited data

Results flagged for a closer look

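A globin signal appeared in barcodes that the filters had removed and that belong to no class, far above the limit that a count of 0 allows. Globin stood at 3706 CPM (3529 to 3890) in the 262 removed WT barcodes and at 3363 CPM (3165 to 3570) in the 205 removed mutant barcodes, where 3 counts would give 6.79 and 9.39 CPM. Without the 2 globin-led barcodes of each library, which were chosen for their globin, the levels were 20.5 CPM (9.36 to 38.8) from 9 UMIs and 3.14 CPM (0.0796 to 17.5) from 1 UMI. There 3 counts would give 6.82 and 9.43 CPM, so the mutant level no longer passed that limit. Outside globin, the leading genes of the first WT barcode were Gpx1, Slc25a37 and Bpgm and those of the other WT barcode were mitochondrial, with 24 and 13 UMIs of the late erythroid list. The mutant barcodes had 2 such UMIs each.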

How the results depend on the processing

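Of 169 values recomputed under other settings, 136 lay within the main 95% interval and 33 outside it, of which 3 ratios crossed 1. In the settings run for it, the erythroid-like globin ratio between libraries ranged from 0.650 to 0.818, and the embryonic share was 0% throughout. Leaving out the 3 WT cells richest in alpha-type UMIs was not among those settings, and would raise the ratio above 1. The following values lay outside, and the cause was not tested. In the study's listed WT cells, available in part, globin was 26.8 CPM in erythrocytes and 39.8 CPM in other cells, the alpha-type share 75.0% and the Hba-a1 share 91.7%. With equal weight for each cell, other cells stood at 19.4 CPM in WT and 15.9 in the mutant, with a ratio of 0.822, and in WT erythroid-like cells the alpha-type share was 77.2% and the Hba-a1 share 86.3%. Thinning to 1000 UMIs, which lowers any share of cells with a UMI, gave 4.79% and 6.67% in erythroid-like, 9.40% and 8.05% in stem and multipotent-like and 2.65% and 2.22% in endothelial-like cells, and put the earliest and latest mutant bins at 43.1 and 23.8 CPM. Chosen after seeing the data: without the globin-rich cells, other cells stood at 10.9 and 9.16 CPM (ratio 0.844), and with removed barcodes added, at 98.1 and 56.4 CPM. Also chosen after seeing the data, leaving out the erythroid-like cell with most globin UMIs in each library gave 44.8 and 30.9 CPM, within the main intervals. In further settings of this kind, Hbb-bt in stem and multipotent-like cells stood at 138 CPM in WT and 228 CPM in the mutant with the stricter filter, and in the mutant at 90.1 CPM with 30 components, 93.0 CPM with each library on its own (ratio to WT 0.888, on the other side of 1) and 83.2 CPM without the 5% highest Scrublet scores. Without the 3 WT cells richest in alpha-type UMIs, the WT alpha-type level was 23.1 CPM, the ratio 1.09 and globin in the latest WT bin 58.6 CPM, and without the globin-rich cells, WT endothelial-like cells stood at 34.0 CPM with a ratio of 1.19; both ratios were below 1 with all cells.

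No paired analysis was possible because each genotype had 1 library. Few globin molecules limit every share in erythroid-like cells, and genes that share most of their sequence limit the split within each adult pair. The embryonic limit in the mutant, 13.6%, rests on 22 UMIs.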

Other observations

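Other globins were rare, with 1 exception. Cygb, cytoglobin, a globin of fibroblasts and pericytes, had 250 UMIs in WT and 210 in the mutant. It stood at 221 CPM (184 to 264) and 191 CPM (157 to 230) in mural-like cells and at 21.7 CPM (17.3 to 26.9) and 17.97 CPM (13.5 to 23.5) in stromal (BMSC)-like cells, so it followed another pattern than the erythroid globins. Hbq1a, Hbq1b, Hbb-bh3, Mb and Ngb had at most 5 UMIs in a library, and Hbb-bh0, Hbb-bh2, Hbb-b1 and Hbb-b2 were not in the tables.

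Likeness was also computed, after seeing the data, for Hbb-bt and for the alpha-type genes on their own, over the same 32 points. The genes most like Hbb-bt were Flt3 (0.893), Ccl4 (0.891), Hlf (0.834), Lck (0.823) and Rgs1 (0.805); Flt3 and Hlf are among the markers that named the class. Those most like the alpha-type sum were Nxpe4 (0.788), Abcg2 (0.746), 9430020K01Rik (0.744), Pkig (0.734) and Podxl (0.730).

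Among the erythroid markers, Ctse, an aspartic protease gene, stood at 91.1 CPM (76.0 to 108) in WT and 6.72 CPM (1.83 to 17.2) in mutant erythroid-like cells, and at 9.88 and 0.967 CPM in all other cells. Its part in the differences between libraries was not tested.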
